A study of Mus musculus with 7 samples.

Results

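The genes described here encode the folding, degradation and translocation machinery of the endoplasmic reticulum (ER) and the enzymes that modify collagen there. Members were taken by symbol from a fixed list of 37 genes, and all 37 were found among the 37975 genes of the authors' deposited expression table. They comprised 17 chaperones and disulfide enzymes, 7 genes of ER-associated degradation, 7 genes of the translocon and 6 collagen-modifying genes. The series held 7 samples, 1 per group. RNA was sequenced from growing primary myoblasts (label EV-GM) and from myotubes (label EV-2DM) kept for 48 hours in DMEM with 5% horse serum, both carrying an empty retroviral vector. The cells were the cultured progeny of satellite cells, the stem cells of skeletal muscle, sorted from mice of 4 to 6 weeks; strain and sex were not in the labels. Binding of MyoD, a master transcription factor of muscle, was measured in 2-day myotubes by chromatin immunoprecipitation (ChIP), in a sample whose label says it was taken from an earlier one. The remaining 4 ChIP samples, for histone marks and histone H3, were not analysed here.

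Proteins bound for the membrane or the outside of the cell enter the ER through the Sec61 channel, fold there with the help of the Hsp70 chaperone BiP, of lectin chaperones and of disulfide isomerases, and leave in COPII vesicles. Proteins that fail to fold are sent back to the cytosol by the Syvn1-Sel1l complex and degraded. When unfolded proteins accumulate, the sensors Ern1, Eif2ak3 and Atf6 start the unfolded protein response, which raises transcription of many of these genes. Myoblasts also secrete collagens, whose chains need prolyl and lysyl hydroxylases and dedicated chaperones before export.

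Expression was given as 1 value per gene and condition in FPKM, fragments normalised to transcript length in kilobases and to the total mapped. No difference could therefore be checked here against replicates, and the read depth behind the values was unknown. The labels' protocol mentions duplicates, but how they entered these values was not given. A call means a q of at most 0.05 in the authors' deposited test over 15966 tested genes. The standard error (SE) quoted with a log2 fold change is the one implied by the authors' test statistic, and a positive log2 value means a higher level in 2-day myotubes. The median authors' log2 fold change over tested genes above 0 in both conditions was -0.41, and changes are also given relative to it, a step called centring below. Among 10 markers of myoblasts and myotubes, the authors' deposited table had 7 calls higher and 2 lower. The summed level of each marker list for other cell types was lower in myotubes, though not each marker: summed FPKM was 4.33 and 0.720 for fibroblasts (4 of 7 listed at 0 in both), 18.1 and 6.60 for adipocytes (1 of 5), 4.71 and 0.431 for endothelium (1 of 5), 32.6 and 27.1 for immune cells (1 of 5), and 75.5 and 17.04 for smooth muscle and pericytes (none), of which Rgs5 held 73.1 and 7.72. Against these sums Abcc9, of the smooth muscle and pericyte list, rose from 0.546 to 7.75 FPKM (log2 3.83, SE 0.59, q = 6.1e-09, authors' deposited table). Which cells held its RNA was not tested. Cspg4, of the same list, was at 0.303 and 1.07 and was called higher only after centring, and the immune marker Itgam was at 20.6 and 24.3 without a call. In such bulk samples, fewer cells of a type and less RNA per cell cannot be told apart.

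Members were listed by symbol without reading promoters, but many are genes that the unfolded protein response is known to raise. A count of an element of that response among them is therefore not independent of the choice of members. The element searched was the ER stress response element (ERSE), through which Atf6 and the CCAAT-binding factor NF-Y are known to act. It reads CCAAT, then any 9 bases, then CCACG, and was searched on both strands of RefSeq promoter windows (GRCm38.p6), which run from 250 bases before to 50 bases after each start site. Windows, 31 in all, were found for 30 of the 37 members, Ero1l and Ero1lb by the current symbols Ero1a and Ero1b; Hyou1, Manf, Derl1, Sec61a1, Ssr2, Fkbp10 and Plod2 were not matched. An exact ERSE lay in 10 of the 30 promoters, against 0.137% of all 27025 genes with a window and 0.169% of the 10038 tested genes among them. Only 37 genes in the whole promoter table held the element, so that 10 of those 37 were members. By role, 8 of 15 chaperones and disulfide enzymes and 2 of 6 degradation genes held it, against 0 of 5 translocon and 0 of 4 collagen genes. GC content, which sets how often such letters occur, averaged 63.9% in the members' windows, 53.8% in all windows and 60.6% in those of tested genes. The 11 matches are shown because they are what these promoters share. Each is written 5′ to 3′ in the orientation of the motif, with the CCAAT and CCACG parts in capitals and the spacer in lower case.
Hspa5: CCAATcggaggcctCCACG
Dnajc3: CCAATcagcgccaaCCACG
Creld2: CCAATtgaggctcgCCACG
Hsp90b1, distal: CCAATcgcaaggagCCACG
Hsp90b1, proximal: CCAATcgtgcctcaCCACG
Calr: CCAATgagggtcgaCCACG
Canx: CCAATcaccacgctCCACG
Pdia6: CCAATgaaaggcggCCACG
Ero1lb: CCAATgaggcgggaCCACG
Syvn1: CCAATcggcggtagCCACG
Derl3: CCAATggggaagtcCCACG
The capitals are identical by the rule of the search, and the spacers differ. All 11 matches ended before the start site. That of Syvn1 was the closest, beginning 44 bases before it, followed by Hspa5 at 65, and the distal copy of Hsp90b1 was the farthest at 212.

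**Figure D1:**
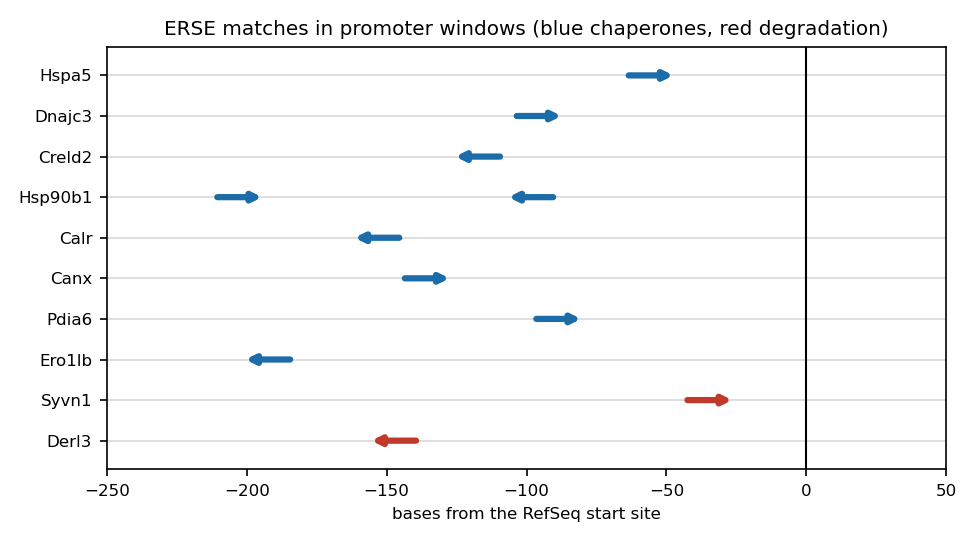
Position of each exact ERSE match (arrows, pointing from CCAAT to CCACG) relative to the RefSeq start site at 0, for the 10 members that hold one, with chaperones in blue and degradation genes in red. The 11 matches occur in both orientations and all lie before the start; Hsp90b1 is the member with 2.

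Longer upstream stretches are shown for Hspa5, Hsp90b1 and Syvn1, since the first 2 are the most abundant chaperone genes of myoblasts, at opposite signs of change, and Syvn1 is the member with an ERSE that was called. All are on the strand of the gene and stop before its start site, with the fixed letters of exact ERSE matches in capitals: Hspa5 at chr2:34771930-34772089 (plus strand), Hsp90b1 at chr10:86705523-86705666 (minus strand) and Syvn1 at chr19:6046416-6046575 (plus strand), in GRCm38.p6.
Hspa5: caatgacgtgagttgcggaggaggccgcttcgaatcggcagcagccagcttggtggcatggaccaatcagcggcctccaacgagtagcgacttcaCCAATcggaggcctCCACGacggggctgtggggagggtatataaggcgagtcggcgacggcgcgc
Hsp90b1: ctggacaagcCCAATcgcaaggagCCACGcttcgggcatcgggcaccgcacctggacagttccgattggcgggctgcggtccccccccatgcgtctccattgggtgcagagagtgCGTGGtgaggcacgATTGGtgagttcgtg
Syvn1: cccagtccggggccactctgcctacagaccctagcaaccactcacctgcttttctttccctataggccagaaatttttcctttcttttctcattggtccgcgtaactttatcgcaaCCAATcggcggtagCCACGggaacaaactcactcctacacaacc
The proximal copy of Hsp90b1 is in reverse orientation and therefore appears as CGTGG before ATTGG. Related motifs were rare in the members: the ERSE-II letters (ATTGG, any base, CCACG), chosen after seeing the data, were in Dnajb11 alone (1 of 30, 0.0444% of all genes), and the letters TGACGTGG, known as the unfolded protein response element, were in 0 of 30 (0.714% of all genes). The hexamer CAGCTG, an E-box that MyoD is known to bind, was in 3 of 30 windows, those of Calr, Pdia3 and Syvn1, against 18.3% of all genes.

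The first question was how the ER machinery stood in myotubes against growing myoblasts. Few members were called: of 36 tested, the authors' deposited table had 2 higher, 2 lower and 32 without a call. Those called higher were Syvn1, the ubiquitin ligase of ER-associated degradation, and P4ha1, a catalytic subunit of collagen prolyl 4-hydroxylase. Those called lower were Pdia3, the disulfide isomerase of the lectin cycle, and Fkbp10, a collagen chaperone. Over all tested genes 6.52% were called higher and 17.3% lower, against 5.56% of the members in each direction. Counts of calls by role or list below are to be read beside these shares. The median log2((FPKM + 1) ratio) of the 36 members was -0.23, beside -0.37 over the 15146 tested genes averaging 1 FPKM or more, and 21 members lay above that median of all genes. Medians of a role or list below are on this (FPKM + 1) scale. After centring, 6 members were called higher and 1 lower, beside 10.2% and 10.3% of all genes. Syvn1 and P4ha1 kept their higher call, Hspa5, Dnajb9, Sdf2l1 and Sel1l gained one, Fkbp10 kept its lower call and Pdia3 lost it. Syvn1, Pdia3 and Fkbp10, 3 of the 4 called members, sit in a locus that holds a further tested gene, so that some of their reads may belong to a neighbour.

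**Figure D2:**
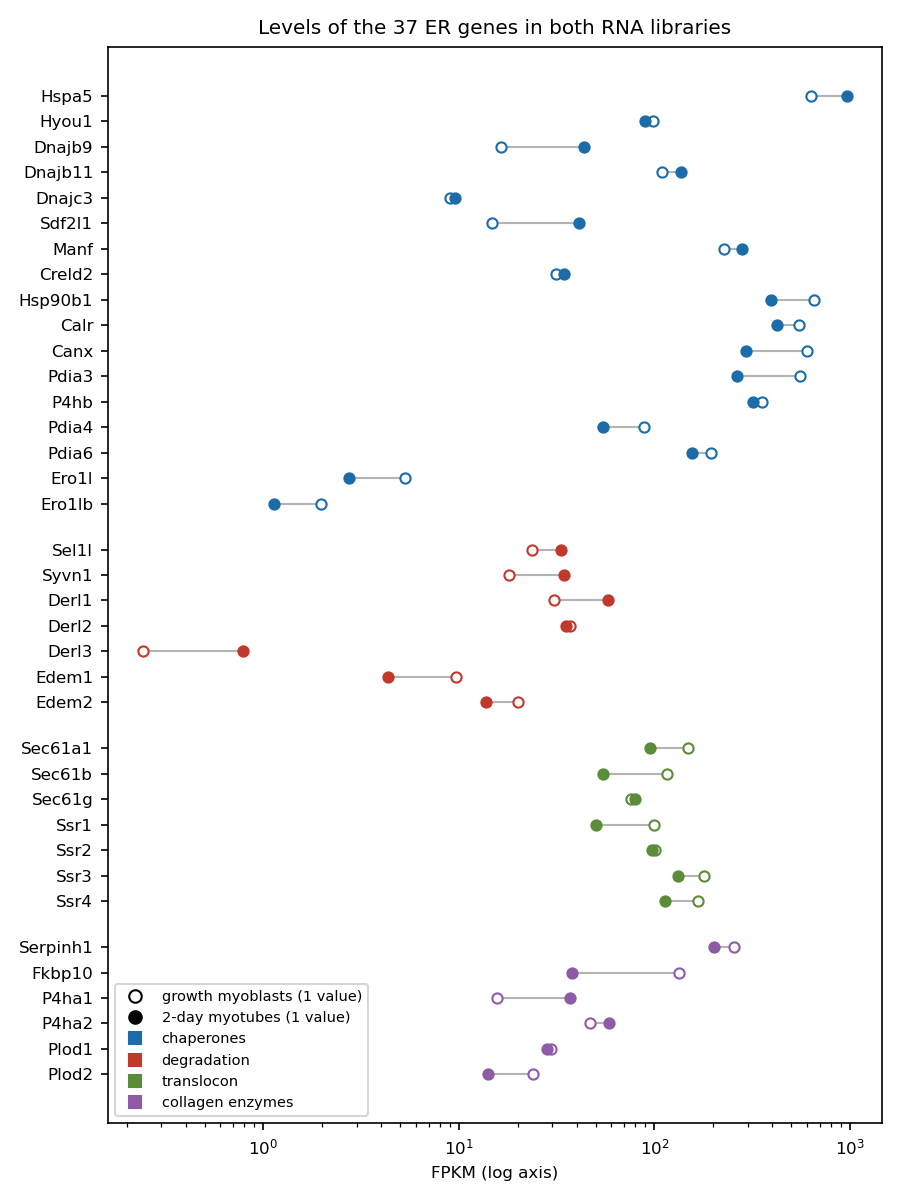
FPKM of each member (log axis) in growing myoblasts (open circles) and 2-day myotubes (filled circles), 1 value each, joined by a line and coloured by role. Chaperones span the widest range, from Ero1lb at 1.97 and 1.13 to Hspa5 at 634 and 965, and the only member under 1 FPKM in both is Derl3.

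The group called the Hsp70 system here holds BiP, its cochaperones and ER proteins listed with them, such as Creld2. Hspa5, which encodes BiP, was at 634 FPKM in myoblasts and 965 in myotubes, moving from rank 304 to rank 174 among tested genes. It had no call in the authors' deposited table (log2 0.61, SE 0.26, q = 0.0777) but was 1.02 above the median of all genes and was called higher after centring (q = 0.00124). Its share of the summed FPKM of the 17 chaperone and disulfide genes was 15.3% in myoblasts and 27.4% in myotubes. Dnajb9 (ERdj4), a J-domain cochaperone, was at 16.4 and 43.7 FPKM (log2 1.41, SE 0.66, q = 0.107, authors' deposited table). Sdf2l1, a partner of Dnajb11 that helps keep clients soluble, was at 14.8 and 41.2 (log2 1.48, SE 0.69, q = 0.106, authors' deposited table). Both had the largest log2 values of any tested member, with errors about as wide as the typical tested gene (median SE 0.65), and both were called higher only after centring (q = 0.0317 and 0.0333).

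The other genes of this group differed little between the conditions. Dnajb11 (ERdj3) went from 110 FPKM to 136 (log2 0.31, SE 0.36, authors' deposited table). Manf, a BiP-binding protein that is also secreted, was at 228 and 281 (log2 0.31, SE 0.33, authors' deposited table). Dnajc3, a J-domain protein of the ER lumen, was at 8.98 and 9.54, and Creld2, an ER protein induced by stress, at 31.3 and 34.5. Hyou1, the large Hsp70 relative that serves as nucleotide exchange factor of BiP, was at 98.8 and 89.9, the only member of the system with a lower value in myotubes (log2 -0.14, SE 0.26, authors' deposited table). None of these 5 was called, before or after centring. All 8 genes of the Hsp70 system lay above the median of all genes, with a median log2 of 0.31, while 0 of 8 were called in the authors' deposited table. The 4 tested genes of retrotranslocation and the 2 prolyl hydroxylases, described below, also all lay above it, with medians of 0.69 and 0.76. These roles were set with earlier results of these data known, so such counts are not independent of the values. The summed FPKM of the Hsp70 system was 1142 in myoblasts and 1601 in myotubes.

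The Hsp90 paralog and the lectin cycle were placed on the other side of 0. Hsp90b1 (Grp94), the ER Hsp90 that folds integrins and growth factors, had 656 FPKM before and 396 FPKM after differentiation, without a call in the authors' deposited table (log2 -0.73, SE 0.40, q = 0.191). In myoblasts Hspa5 stood at 0.966 times the FPKM of Hsp90b1, and in myotubes at 2.44 times. The difference between their log2 changes was 1.33, with a 95% interval from 0.39 to 2.28. Such intervals combine the implied errors of both genes as if independent. They were computed for 12 pairs chosen after the values were seen, of which 5 had an interval without 0, and they replace no replicate.

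Calr and Canx, the soluble and the membrane-bound lectin that hold glycoproteins during folding, and Pdia3 (ERp57), the isomerase that works with them, had near-equal levels in myoblasts, at 549, 602 and 553 FPKM. In myotubes Calr was at 424, Canx at 296 and Pdia3 at 264. Pdia3 fell 2.09-fold (log2 -1.07, SE 0.39, q = 0.0290, authors' deposited table), while the centred change was -0.65 (q = 0.257). Canx had nearly the same change without a call (log2 -1.03, SE 0.45, q = 0.0809, authors' deposited table), and had none after centring (q = 0.393). Calr moved least (log2 -0.37, SE 0.38, q = 0.546, authors' deposited table), and its difference from Canx, 0.65, had an interval from -0.50 to 1.81. The locus of Pdia3 is shared with Catsper2, Gm14001 and Gm14000, which had 0 to 10.5 FPKM and so little signal beside it.

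The disulfide enzymes had 0 of 5 calls in the authors' deposited table. P4hb, protein disulfide isomerase itself and also the beta subunit of prolyl 4-hydroxylase, had 354 FPKM in growth and 320 after 2 days (log2 -0.14, SE 0.38, authors' deposited table). Pdia6 was at 195 and 156, and Pdia4 at 88.7 and 54.4 (log2 -0.70, SE 0.66, authors' deposited table). The oxidases that reoxidise these isomerases were the least abundant tested chaperone genes. Ero1l was at 5.32 and 2.73 FPKM and Ero1lb at 1.97 and 1.13, with log2 values of -0.96 (SE 0.71) and -0.81 (SE 0.77) in the authors' deposited table. All 5 had lower values in myotubes and none was past its error by enough for a call. Their median log2 of -0.48 was near that of all genes.

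**Figure D3:**
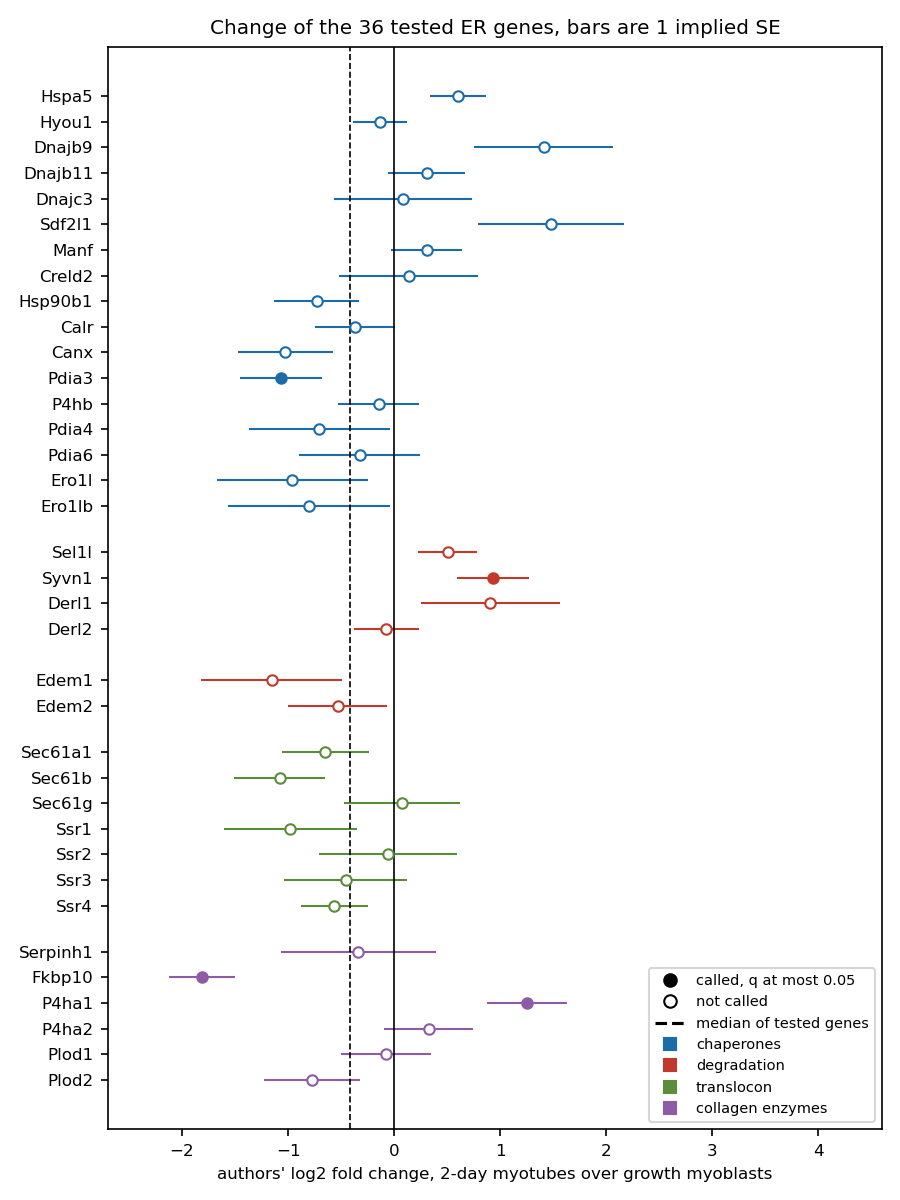
Authors' log2 fold change of the 36 tested members, 2-day myotubes over growing myoblasts, with bars of 1 implied SE; filled points were called, the solid line marks 0 and the dashed line the median of tested genes, -0.41. Fkbp10 and Pdia3 are the filled points to the left and P4ha1 and Syvn1 those to the right, and all 8 genes from Hspa5 to Creld2 lie to the right of the dashed line. The roles were set with earlier results of these data known.

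Of the degradation genes, Syvn1 was the member called. Syvn1 (Hrd1), the membrane ubiquitin ligase, rose from 18.1 to 34.7 FPKM (log2 0.94, SE 0.34, q = 0.0285, authors' deposited table) and was 1.35 above the median of all genes. Its locus is shared with Mrpl49, a mitochondrial ribosomal gene at 76.3 and 78.7 FPKM with a log2 of 0.05 and no call in the authors' deposited table. Sel1l, the adaptor that holds Syvn1 in the complex, was at 23.5 and 33.4 (log2 0.50, SE 0.27, q = 0.185, authors' deposited table) and was called higher only after centring (q = 0.00681). The pair thus had nearly equal levels in myotubes, the ligase having been the lower of them in myoblasts.

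Derlins are membrane proteins that help pull clients back to the cytosol. Derl1 had 30.7 FPKM in growth and 57.6 after 2 days (log2 0.91, SE 0.65, q = 0.347, authors' deposited table), and Derl2 had 37.02 and 35.2 (log2 -0.07, SE 0.31, authors' deposited table). Derl1 made up 45.2% of the summed FPKM of the 3 derlins in myoblasts and 61.5% in myotubes, but the difference in log2 change from Derl2, 0.98, had an interval from -0.44 to 2.40. Derl3, at 0.242 and 0.785 FPKM, was not tested by the authors. Edem1 and Edem2, which trim mannose from glycoproteins to mark them for degradation, were at 9.62 and 4.32 FPKM and at 20.0 and 13.8 FPKM. Neither was called (log2 -1.15, SE 0.66 and log2 -0.53, SE 0.46, authors' deposited table). In FPKM, Syvn1 was 1.88 times Edem1 in myoblasts and 8.03 times in myotubes, with a difference in log2 change of 2.09 (interval 0.63 to 3.55). The 6 tested degradation genes had 1 higher and 0 lower calls in the authors' deposited table and a median log2 of 0.21, which became -0.0076 without Syvn1 and Derl2, whose loci are shared.

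The translocon had 0 of 7 members called in the authors' deposited table, beside 6.52% higher and 17.3% lower over all tested genes. After centring it had 0 of 7, beside 10.2% and 10.3%. Sec61a1, the pore of the channel, had 149 FPKM in growth and 95.1 after 2 days (log2 -0.65, SE 0.41, authors' deposited table). Sec61b, a small tail-anchored subunit, was at 115 and 54.6 and lay just outside the threshold (log2 -1.08, SE 0.43, q = 0.0505, authors' deposited table). Sec61g, the other small subunit, was at 75.7 and 79.8, so that the order of the small subunits changed between the conditions. The interval of their difference in log2 change was from -0.21 to 2.52. The Ssr genes encode the translocon-associated protein complex, which helps substrates with weak signal sequences into the channel. Ssr1 was at 99.0 and 50.3 FPKM (log2 -0.98, SE 0.63, authors' deposited table), and Ssr2 at 101 and 97.2. Ssr3 was at 180 and 131, and Ssr4 at 168 and 114 (log2 -0.56, SE 0.31, authors' deposited table). Within the complex the levels lay within a factor of 1.82 of each other in myoblasts and 2.62 in myotubes. The median log2 of the 7 genes, -0.56, was below that of all genes by 0.19, and 1 of 7 had a higher value in myotubes.

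The collagen-modifying genes held both of the members with the smallest q. Fkbp10 (FKBP65), a prolyl isomerase that assists collagen folding and lysyl hydroxylation, fell from 134 to 38.1 FPKM, a 3.51-fold change (log2 -1.81, SE 0.31, q = 2.39e-07, authors' deposited table). The fall was -1.40 relative to the median of all genes and kept its call after centring (q = 0.000131). The locus is shared with Nt5c3l, at 142 and 79.9 FPKM (log2 -0.83, q = 0.0664, not called, authors' deposited table). P4ha1 rose from 15.6 to 37.2 FPKM, a 2.39-fold change (log2 1.26, SE 0.38, q = 0.00619, authors' deposited table), in a locus that no other tested gene shares. As a result Fkbp10 stood far above P4ha1 in myoblasts, whereas in myotubes the ratio of P4ha1 to Fkbp10 was 0.976, and their log2 changes differed by 3.07 (interval 2.11 to 4.03).

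P4ha2, the alternative catalytic subunit of prolyl 4-hydroxylase, had 46.8 FPKM in growth and 58.7 after 2 days, without a call in the authors' deposited table (log2 0.33, SE 0.42, q = 0.646). P4ha1 accounted for 25.0% of the summed FPKM of both catalytic subunits in myoblasts and 38.8% in myotubes, with an interval of the difference in log2 change from -0.17 to 2.03. Their shared beta subunit P4hb remained far more abundant than either, P4ha1 having 0.0440 of its FPKM in myoblasts and 0.116 in myotubes. Serpinh1 (HSP47), the chaperone specific for the collagen triple helix, was the most abundant of the collagen genes at 255 and 202 FPKM. Its implied error was among the widest of the members (log2 -0.34, SE 0.73, authors' deposited table). Of the lysyl hydroxylases, Plod1 was at 29.6 and 28.1 and Plod2, which acts on the telopeptides, at 24.04 and 14.1 (log2 -0.77, SE 0.45, q = 0.229, authors' deposited table). Collagen genes therefore included values on both sides of the median of all genes, 4 of 6 above it, with a median log2 of -0.20 and 0.17 relative to all genes.

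Side by side, the roles differed in where their members lay. The median log2 was 0.21 for degradation genes, -0.14 for chaperones and disulfide enzymes, -0.20 for collagen genes and -0.56 for the translocon, beside -0.37 for all genes. Relative to all genes the chaperone and collagen medians change sign, to 0.23 and 0.17, and the degradation median is 0.58. These are descriptions of 6 to 17 genes with 1 value per condition, in roles set with earlier results known, and with no test of the difference between roles. By promoter, the 9 tested members with an ERSE had a median log2((FPKM + 1) ratio) of -0.32, from -1.02 for Canx to 0.90 for Syvn1, and the 20 with a window but no exact ERSE had -0.24. Calls in the authors' deposited table were 1 higher and 0 lower with an ERSE, and 1 higher and 1 lower without.

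The wider secretory pathway was described with 8 further lists. Shared loci occur here too, among them those of the called genes Ddit3, Mbtps2, Srpr, Ube2g2, Loxl3 and Col18a1. Some of their reads may belong to a neighbour. The list of sensors and factors of the unfolded protein response stood out in the authors' deposited table, with a median log2 of 0.99. There 6 of 15 tested genes were called higher and 2 lower, beside 6.52% and 17.3% of all tested genes. None of these calls was a sensor. Ern1 had a log2 of -1.36 (SE 0.59), Eif2ak3 of -0.25 (SE 0.65) and Atf6 of 1.06 (SE 0.66), all named after their values were seen. Trib3, a pseudokinase induced by stress, rose from 8.17 to 107 FPKM (log2 3.72, SE 0.49), and Herpud1, a partner of Syvn1 in degradation, from 60.3 to 514 (log2 3.09, SE 0.30), both in the authors' deposited table. In the authors' deposited table Ddit3 (CHOP) rose from 15.2 to 59.5 FPKM (log2 1.97, SE 0.47). The other 3 called higher, named after their values were seen, were Ppp1r15a, Creb3 and Xbp1. The latter, whose spliced product is a main activator of ER chaperone and degradation genes, rose from 79.1 FPKM to 164 in the authors' deposited table (log2 1.05, SE 0.38). Creb3l1, a membrane-bound factor of the same family as Creb3, fell from 57.0 to 15.5 FPKM, and Mbtps2, a protease that releases such factors, from 47.3 to 15.8 in the authors' deposited table; Creb3l1 lost its call after centring. Atf4, the most abundant gene of that list without a call, was at 261 and 521. The 8 members of the Hsp70 system, a role also set with earlier results known, had 0 calls in the same table. After centring 3 of those 8 were called higher, beside 6 of the 15 tested genes in the list of sensors and factors.

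**Figure D4:**
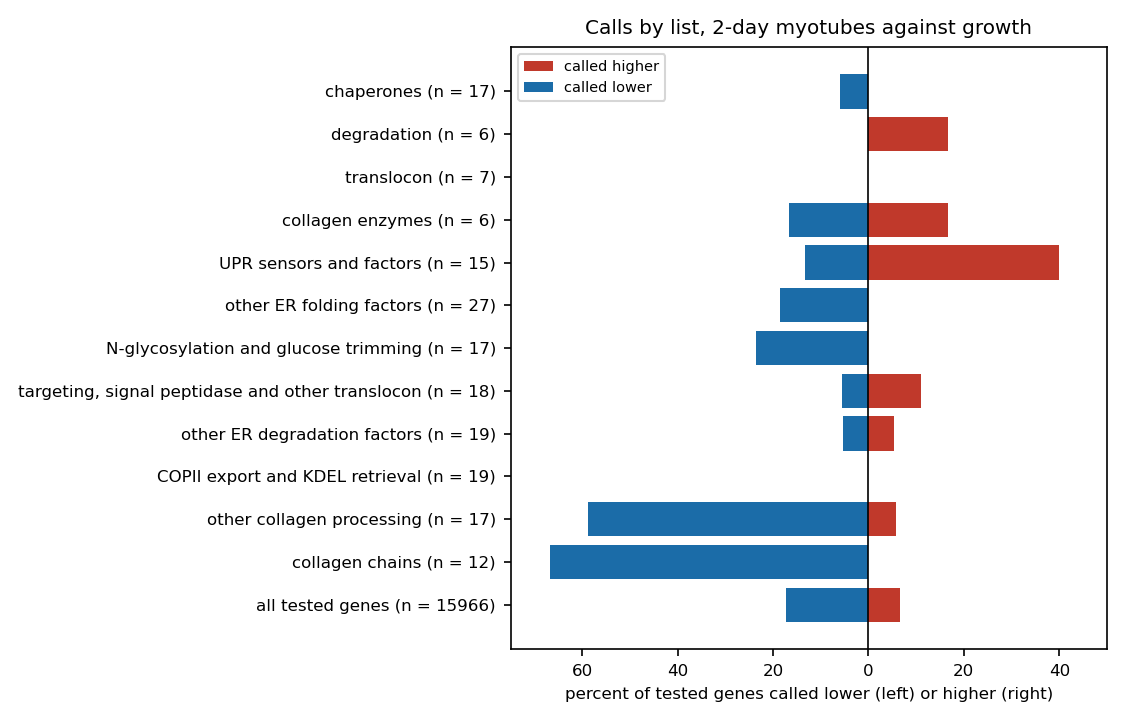
Percent of tested genes called lower (left, blue) or higher (right, red) in 2-day myotubes by the authors' q, for the 4 roles, the 8 further lists and all tested genes, with the number tested in parentheses. Calls higher are most frequent in the list of sensors and factors of the unfolded protein response (6 of 15), calls lower among collagen chains (8 of 12), and export genes have none. Roles and lists were chosen with earlier results of these data known.

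Other ER folding factors had 0 higher and 5 lower calls of 27 in the authors' deposited table, a share of 18.5% beside 17.3% for all genes. Prdx4, an ER peroxiredoxin, fell from 97.5 FPKM to 15.8 in the authors' deposited table (log2 -2.62, SE 0.69). Dnajc10, a disulfide reductase that acts in degradation, fell from 81.3 to 30.7 and Cnpy4 from 12.6 to 3.40 in the authors' deposited table, calls that both lost after centring; Dnajc1 and Tmx1, named after their values were seen, were the other genes called lower. Ppib, the ER cyclophilin that works with collagen, was at 419 and 195 and was not called. N-glycosylation and glucose-trimming genes had 0 higher and 4 lower of 17 in the authors' deposited table. Tusc3, an oxidoreductase subunit of oligosaccharyltransferase, fell from 64.7 to 18.8, and both subunits of glucosidase II fell, Ganab from 109 to 39.1 and Prkcsh from 77.2 to 40.5 FPKM, in the authors' deposited table. Only Tusc3 of the 4 kept its call after centring; the fourth was Uggt2. Rpn2, the most abundant of the list, was at 1096 and 646 and was not called.

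Genes of targeting, signal peptidase and the rest of the translocon had 2 higher and 1 lower of 18 called in the authors' deposited table, and a median log2 of 0.35. Srp14, a subunit of the signal recognition particle, rose from 142 to 270 FPKM, and Srpr, the receptor of that particle, from 60.1 to 123 in the authors' deposited table. Srp72, also a subunit, fell from 131 FPKM to 75.2 by the authors' deposited table, a call that was lost after centring. The remaining degradation factors had 1 higher and 1 lower of 19 called in the authors' deposited table: Ube2g2, a ubiquitin-conjugating enzyme used in ER-associated degradation, rose from 101 to 492 FPKM (log2 2.29, SE 0.37), and Faf2 fell from 86.9 to 33.9. Vcp, the ATPase that extracts clients from the membrane, was at 278 and 271. Genes of COPII export and KDEL retrieval had 0 of 19 called in the authors' deposited table, beside 6.52% higher and 17.3% lower over all tested genes. Their median log2 was -0.13, with Surf4, a cargo receptor, at 264 and 371 FPKM.

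Collagen itself, the client of the last group of members, was called lower in most tested chains. The authors' deposited table had 8 of 12 chains lower and 0 higher, the counts were the same after centring, and the median log2 was -2.17. By the authors' deposited table, Col18a1, the most abundant, fell from 373 to 63.0 FPKM, Col3a1 from 82.2 to 13.3 and Col8a1 from 15.8 to 2.12. Col5a1 had 27.5 and 14.6 FPKM and no call. Other collagen-processing genes had 10 lower and 1 higher of 17 called in the authors' deposited table, 7 and 2 after centring. Leprel2, a collagen prolyl 3-hydroxylase, fell from 21.9 to 2.33 FPKM, Bmp1, the procollagen C-proteinase, from 21.3 to 3.90 and Loxl3, a lysyl oxidase, from 22.8 to 3.63 in the authors' deposited table. Called higher was Tmem38b, an ER cation channel, at 24.1 and 92.0. Sparc, a collagen-binding protein, was at 782 and 840 and was not called. Fkbp10 was the 1 of 6 collagen-modifying members called lower. Fibroblast markers, summing to 4.33 and 0.720 FPKM, moved in the same direction as these collagen genes, and their part in the result was not tested.

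The last question was whether MyoD was bound near the members in myotubes. Tags, fold enrichment and false discovery rate are the authors' values for each of 10756 peaks, in mm9. A summit lay in the locus or within 10 kb for 10 of 36 tested members, or 27.8% (exact Clopper-Pearson 95% interval 14.2 to 45.2, counting error only), beside 38.9% of 15930 tested genes on chromosomes with peaks. The median locus was 20999 bp for members and 26498 bp for those genes. By role the counts were 4 of 17 chaperones and disulfide enzymes, 1 of 6 degradation genes, 1 of 7 translocon genes and 4 of 6 collagen genes. The 12 peaks at these members held 7 to 33 tags, with 6.23-fold to 18.7-fold enrichment and a false discovery rate from 7.77% to 23.6%. Thus 0 of 36 members had a peak at a rate of 5% or less, against 11.7% of the genes. For counting error only, this allows a share of up to 8.33% by a limit of 3 counts and 9.74% by the exact Clopper-Pearson interval. Both limits treat the listed members as independent draws and make no allowance for their shorter loci. Within 50 kb the shares were 61.1% of members and 60% of genes, and a difference between members and other genes was not tested.

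Serpinh1 had the most peaks. Summits inside its locus lay in peaks at chr7:106499424-106500398, with 30 tags and 12.0-fold enrichment, and at chr7:106501380-106502158, with 25 tags and 6.23-fold. The remaining summit lay 3357 bp past the last base of the locus, with 23 tags. P4ha2 had a summit inside its locus in a peak at chr11:53935821-53936243 with 33 tags, the most tags of any member, and Plod1 one with 7, the fewest. Fkbp10, which fell, had a summit 1374 bp before the first base of its locus with 11 tags. Among the other roles, the peak nearest to a locus end was at Creld2, chr15:88649448-88650190, with a summit 283 bp before the first base, 27 tags and 13.1-fold enrichment. Syvn1 had a summit 4004 bp past its last base with 32 tags, and Dnajb11, P4hb and Ssr2 had 1 each between 3775 and 6733 bp from their loci. That of Manf lay inside a locus shared by 4 tested genes. P4ha1, Pdia3 and Hspa5 had none within 10 kb: the nearest summits were 27922, 67019 and 94578 bp away. Of the 4 called members, Syvn1 and Fkbp10 thus had a summit within 10 kb of their locus, 1 called higher and 1 lower. Both loci are shared, with Mrpl49 and Nt5c3l, so the locus end nearest to the summit may belong to the neighbour.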

How the data were processed

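Expression values are FPKM as deposited, in a table laid out as by Cuffdiff, which the submitters' processing notes name with CASAVA 1.7.0 and mm9. For the aligner, annotation release and Cuffdiff version, and for how the duplicates in the labels' protocol were combined: not given in the sources used here. This table was deposited by the authors as 2 identical copies and 1 was used. The deposited p-values and q-values are from the authors' test, over 15966 tested genes. The authors' log2 fold changes carry a placeholder for genes at 0 in a condition, which were left out where a finite value was needed. The test statistic is a score from the authors; each SE is the size of log2 fold change over that score, and p-values recomputed from it differed from the deposited ones by at most 2.68e-06. No replicate test was possible with 1 value per condition. The depth of the RNA libraries is unknown.

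List medians used log2((FPKM + 1) ratio) over tested genes averaging 1 FPKM or more. Centring subtracted the median authors' log2 fold change, took normal p-values from the SE and adjusted them by the Benjamini-Hochberg method over 15416 genes; the step was tested on simulated data. Loci are printed from base 1 in mm9; Cuffdiff loci can merge overlapping genes.

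Per the file headers, MACS called the peaks (version 1.3.7 in the submitters' processing notes), from 8637045 ChIP tags against 9129012 control tags. Of these, 4049890 and 4371189 were unique. Tags are counts, per the file headers. Fold enrichment is a ratio from the authors' caller, and the false discovery rate is a percent, per the file headers. The peak p score was not used.

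Promoters are RefSeq windows of 300 bases in GRCm38.p6, matched by symbol; no coordinates were moved between builds. Members, roles and lists were chosen with earlier results of these data known. All members are named; from each other list up to 3 called genes per direction with an FPKM of at least 10, ranked by the authors' log2 fold change, and the most abundant uncalled gene. Mia3 and Vimp were not found by symbol. Alternatives were the q threshold, the pseudocount, low-value filters, centring, peak windows and thresholds, motif forms and shared loci. Python 3.11.15, pandas, SciPy and matplotlib were used.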

Additional observations from a re-analysis of the deposited data

How the results depend on the processing

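Each condition had 1 value, so leaving out a replicate was not possible. No paired analysis was possible because each condition had 1 value. Of 82 alternatives for 17 results, 55 stayed close to the value reported, within 1.5 times for a count and within the median SE for a median. By that rule 3 members called higher at a q of at most 0.1 count as close to 2. Some alternatives could not differ. Every tested member averaged 1 FPKM or more, the called members averaged 10 or more, and a count of 0 cannot fall at a stricter q. At a q of at most 0.01, all members had 1 called higher and 1 lower, chaperones 0 lower and degradation genes 0 higher. At a q of at most 0.1, 4 members were lower, chaperones had 1 higher and 2 lower, and the translocon 1 lower. After centring, 6 members were higher and 1 lower, chaperones had 3 higher and 0 lower, and degradation genes 2 higher; the medians turned to 0.14 for all members, 0.23 for chaperones and 0.17 for collagen genes. With members of unshared loci alone, chosen after seeing the data, 1 member was higher and 0 lower, with 0 lower among chaperones and among collagen genes, 0 higher among degradation genes, and a degradation median of -0.0076. No count moved when only genes averaging 10 FPKM or more were used. Members with a MyoD peak numbered 4 with the summit inside the locus, 22 within 50 kb (61.1%, beside 60% of genes) and 0 at a false discovery rate of at most 5%. With any base allowed at 1 position of CCACG and CCAAT kept exact, an ERSE was in 15 of 30 promoters, beside 1.14% of all genes. Those 15 include the 10 with an exact match. The unfolded protein response element was in 0 and ERSE-II in 1.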

Other observations

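Outside the list, 27 further genes held an exact ERSE in their promoter window, and 8 of those were tested for expression. Calr4, a relative of calreticulin, rose from 1.49 to 12.2 FPKM (log2 3.04, SE 0.63, q = 3.17e-05, authors' deposited table) and kept its call after centring. Adcy3, an adenylyl cyclase, fell from 20.5 to 3.48 FPKM in the authors' deposited table and also kept its call. Acacb and Hnrnpa3 were called lower in that table but not after centring. Alg12, Pan2, Spats2l and Zfp57 were not called. Alg12, a mannosyltransferase of N-glycan assembly, was at 11.1 and 7.39 FPKM. These genes were singled out after their values were seen.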
